A study of Homo sapiens with 4 samples.

Results

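Doxycycline was given to 2 pools of MDA-MB-468 cells, an established basal-like triple-negative breast cancer (TNBC) line, and what is described here is the doxycycline effect seen in the pool with the TCOF1 guide over and above that seen in the control pool. For each gene the quantity is a difference of 2 log2 ratios, log2(gRNA2+dox / gRNA2) minus log2(CTL+dox / CTL), called the difference below, with the gRNA2 ratio and the CTL ratio as its arms. Members were the genes that reached 50 counts in any of the 4 libraries, which gave 12467 of 26475 genes listed. Of the 14008 genes under this minimum, 5249 had no count in any library. The 24 genes whose highest count was 49, just outside the minimum, had differences from -0.86 to 1.20, and the 33 genes at 50 counts had differences from -1.86 to 1.13.

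RNA was sequenced from mammospheres, spheres grown without attachment that are used to enrich cells with stem cell properties, and each of the conditions CTL, gRNA2, CTL+dox and gRNA2+dox gave 1 library. By the study's methods each library pooled the spheres of several plates, the cells carried Cas9 and a doxycycline-inducible guide cassette from lentiviruses, and they were sorted pools rather than clones. The CTL cells are called a vector control in some places of the study and cells with a control guide in others. By the labels, CTL and gRNA2 had no treatment and the genotype wild type, CTL+dox had doxycycline and the genotype wild type, and gRNA2+dox had doxycycline and the genotype Knockout of TCOF1. No condition had a second library, so variation between cultures could not be measured and no p-value is given. Every interval below is an exact 95% interval that covers counting error only, and a gene was called at a difference of 1 or more in size, which is 2-fold. Bulk RNA cannot tell fewer cells of a type from less RNA per cell.

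Counts on genes summed to between 19960644 and 26322847 per library. The expected line markers were present in all 4 libraries, with EPCAM between 429 and 477 CPM (counts scaled to a common library size), EGFR between 2461 and 3363 CPM and the basal keratin KRT5 between 3280 and 4197 CPM. ESR1 had at most 13 counts and PGR at most 7 counts in any library, while ERBB2 had between 270 and 387 counts.

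TCOF1 encodes treacle, a nucleolar scaffold that brings RNA polymerase I and the factors that process ribosomal RNA together, and treacle also takes part in the nucleolar DNA damage response. Cas9 cuts DNA where a guide pairs with it next to a short motif (PAM), and the repair of the cut leaves small insertions or deletions that can shift the reading frame. Such transcripts can be degraded or can remain, so a count measures the amount of mRNA and not the editing. Doxycycline itself also inhibits mitochondrial translation, and the CTL pool was given it as well. The gRNA2 target lies on GRCh37 at chr5:149754959-149754981, on the reverse strand, within coding exon 11 of the 27 exons of TCOF1. It is shown because it is the only designed difference between the arms, with the PAM in capitals.
TCOF1 gRNA2: gggccggcgcctttccccaaGGG

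TCOF1 itself had 1019 counts in CTL against 754 in CTL+dox, and 1318 in gRNA2 against 437 in gRNA2+dox. After scaling these are 50.42 and 33.56 CPM in the control pool and 49.99 and 19.99 CPM in the guide pool, so that both doxycycline libraries were lower than their partners and gRNA2+dox was the lowest. The gRNA2 ratio was -1.32 (interval -1.48 to -1.16) and the CTL ratio was -0.59 (interval -0.73 to -0.45). Their difference was -0.73 (interval -0.95 to -0.52), lower by 1.66-fold, which is clear of 0 but does not reach the 2-fold call. The targeted gene therefore was not among the genes called here, since part of its lower count with doxycycline was also present without the guide.

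Across the 12467 genes the difference was at or above 1 in 54 genes (0.433%) and at or below -1 in 86 genes (0.69%). The higher genes were led by chemokines and by genes that interferon induces, among them CXCL9, CXCL10, the guanylate-binding proteins GBP1, GBP4 and GBP5, IDO1 and the IFIT genes. The lower genes were led by IGFBP5, FGFBP2, GGT1 and LDHB, and the mitotic gene DLGAP5 was also among them. The median difference was 0.00 with an SD of 0.296 over genes, and 92.0% of genes lay within 0.5 of 0.

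**Figure D1:**
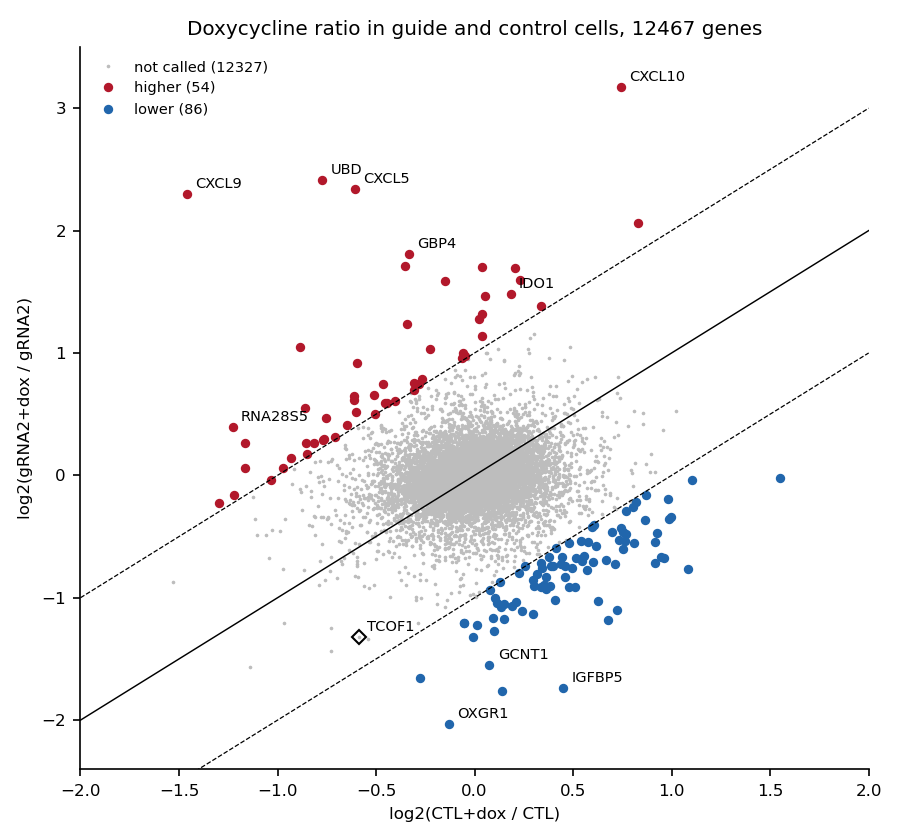
Log2 ratio of CTL+dox to CTL on the horizontal axis and of gRNA2+dox to gRNA2 on the vertical axis, with 1 point per gene. The solid line is a difference of 0 and the dashed lines are the 2-fold calls. The 54 higher genes (red) lie above the upper dashed line, the 86 lower genes (blue) below the lower one, and TCOF1 (diamond) lies between them.

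A difference of this kind can come from either arm, and the arms were therefore read separately. The gRNA2 ratio was at or above 1 in 26 genes (0.209%) and at or below -1 in 35 genes (0.281%). The CTL ratio was at or above 1 in 4 genes (0.0321%) and at or below -1 in 15 genes (0.12%). Of the called genes, the gRNA2 arm was the larger in 35 of 54 higher and 57 of 86 lower genes, against 48.6% of all genes. In 28 of the higher and 59 of the lower genes neither arm reached 2-fold on its own. The arms had opposite signs in 40 higher and 81 lower genes, against 42.2% of all genes, a pattern that choosing large differences favours by itself. gRNA2+dox had the highest level of the 4 libraries in 34 of the 54 higher genes and the lowest level in 66 of the 86 lower genes, as a description only, since the gRNA2+dox level enters the difference by which these genes were chosen. In the remaining 20 higher and 20 lower genes another library was the extreme one.

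Precision differed strongly with the count. Called genes made up 7.11% of the 1252 genes whose highest count was from 50 to 99, 1.65% of the 2309 genes from 100 to 299, 0.31% of the 3545 genes from 300 to 999 and 0.0373% of the 5361 genes at 1000 or more. The interval was 1.63 wide in the median for the genes with the fewest counts and 0.253 wide for those with the most. Of the called genes, 52 higher and 84 lower ones had an interval clear of 0. GBP7 and TXNDC5 among the higher and TMEM108 and TREM1 among the lower did not. Across all genes, the interval lay above 0 in 15.7% and below 0 in 13.3%, most of them at small differences in deeply counted genes: at 1000 counts or more, 42.5% of genes were clear of 0 in one direction or the other. Of the 54 higher genes, 13 reached 50 counts in gRNA2+dox alone and so were tested only because they were high there, as were 0 of the 86 lower genes and 46 of all 12467. Among members of the gene lists named below these were CXCL9, CXCL10, CXCL11, UBD, IFIT1, IL24, FANCB and IFI16.

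**Figure D2:**
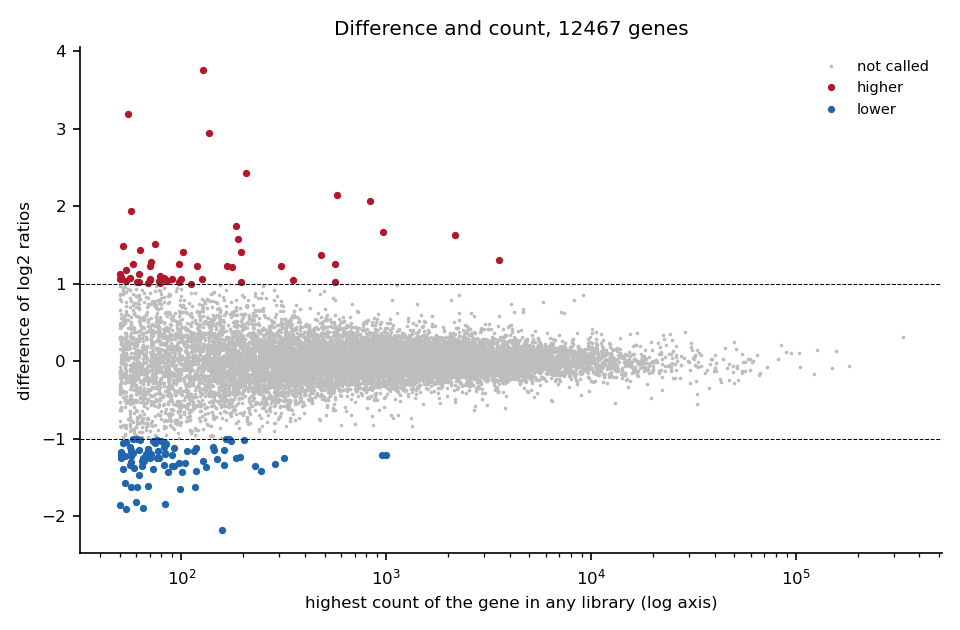
Difference of log2 ratios (vertical axis) against the highest count of the gene in any library (horizontal, log axis), 1 point per gene. Called genes (red higher, blue lower, dashed lines at 1 and -1) crowd at the left, where 7.11% of genes with 50 to 99 counts were called, and IDO1 and RNA28S5 are the 2 called genes at 1000 counts or more.

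Interferons bind receptors that activate the JAK kinases and the STAT transcription factors, which with the IRF factors switch on a set of genes for defence against viruses and for antigen presentation. The chemokines CXCL9, CXCL10 and CXCL11 share the receptor CXCR3 and attract activated lymphocytes, and their genes are neighbours on chromosome 4. CXCL9 had 28 counts in CTL against 11 in CTL+dox, and 31 in gRNA2 against 128 in gRNA2+dox. The gRNA2 ratio was 2.30 and the CTL ratio -1.46, so that the difference of 3.76 (interval 2.57 to 5.11) was the largest of all genes tested. Counts below 50 in 3 of the 4 libraries make the interval wide, and the lower count in CTL+dox carries part of the difference. CXCL10 had 24, 45, 27 and 206 counts in the same order of libraries, which is kept below. Here both arms were above 0, with a gRNA2 ratio of 3.17 and a CTL ratio of 0.74, and the difference was 2.43 (interval 1.45 to 3.43). CXCL11 had 28, 32, 43 and 79 counts, and its difference of 1.10 had an interval from 0.13 to 2.08. CCL2, which attracts monocytes, had 66, 76, 85 and 195 counts and a difference of 1.41 (interval 0.78 to 2.05). gRNA2+dox was the highest library in all 4 chemokines, as a description only, since its level enters the difference by which they were called. Of the 9 lymphocyte-attracting chemokines listed, 3 did not reach the minimum count, and CXCL9, CXCL10 and CXCL11 reached it in gRNA2+dox alone, so no share or median of this list is read. CXCL16 (0.07) and CX3CL1 (0.00) had intervals that hold 0.

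The guanylate-binding proteins are large GTPases that attack the membranes around intracellular microbes, and 7 of their genes lie side by side on chromosome 1. GBP4 had 119, 105, 197 and 573 counts, a difference of 2.14 (interval 1.68 to 2.61) or 4.41-fold. GBP5 had 152, 132, 306 and 829 counts and a difference of 2.06 (interval 1.67 to 2.46). GBP1 had 184, 210, 356 and 961 counts and a difference of 1.66 (interval 1.32 to 2.01). In these 3 genes gRNA2 without doxycycline already had more counts than either CTL library, and gRNA2+dox exceeded it with a gRNA2 ratio between 1.70 and 1.81. GBP2 and GBP3 were smaller at 0.78 (interval 0.54 to 1.02) and 0.19 (interval 0.00 to 0.37), GBP7 was 1.28 with an interval that holds 0, and GBP6 did not reach the minimum count. IDO1, the enzyme that starts tryptophan breakdown to kynurenine, had 893, 1127, 1533 and 3548 counts and a difference of 1.30 (interval 1.14 to 1.45). It was the called protein-coding gene with the most counts. A list of 11 genes induced by interferon gamma holds GBP1 to GBP5, IDO1, CD274 and others but neither GBP6 nor GBP7. Its 4 calls were GBP1, GBP4, GBP5 and IDO1. Its 11 members had intervals above 0 (median 0.71), against 15.7% of all genes, while the interval of GBP7 was not above 0. CD274, the checkpoint ligand PD-L1, had 223, 220, 260 and 314 counts and a difference of 0.71 (interval 0.35 to 1.08). Its relative PDCD1LG2, named after its values were seen, had 48, 51, 60 and 97 counts and a difference of 1.02 (interval 0.25 to 1.81).

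The IFIT proteins bind viral RNA that lacks the cap marks of the cell's own mRNA. IFIT2 had 46, 46, 74 and 185 counts, and its difference was 1.74 (interval 0.99 to 2.49). IFIT3 had 118, 154, 191 and 479 counts (1.36, interval 0.93 to 1.80) and IFIT1 had 37, 27, 47 and 74 counts (1.52, interval 0.58 to 2.49), while the neighbouring IFIT5 was at -0.03 (interval -0.57 to 0.50). The wider list of interferon-stimulated genes was mixed, with a median of 0.24. Of 33 tested members, 15 had an interval above 0 and 2 below 0, against 15.7% and 13.3% of all genes. IFIT1, one of the 15, reached the minimum count in gRNA2+dox alone, so this share and the median are a description only. Beside the IFIT genes, OAS2 (0.87), SAMD9L (0.83) and CMPK2 (0.57) had the intervals farthest above 0. MX1 was at 0.40 and ISG15 at 0.35, while HERC5 (-0.30) and LGALS3BP (-0.11) had intervals below 0. IFI6, IFI27 and OAS1 were at -0.42, -0.44 and -0.10 with intervals that hold 0, so the higher values did not extend to every gene of this kind.

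Of the interferon signalling genes, 13 of 19 tested had an interval above 0 and 0 below, against 15.7% and 13.3% of all genes. The list median was 0.37. BATF2, a partner of IRF1 at interferon-induced genes, had 186, 210, 281 and 564 counts and was the only call of this list, at 1.25 (interval 0.89 to 1.62). IRF1 was at 0.78, IRF7 at 0.73 and the feedback inhibitors SOCS1 and SOCS3 at 0.61 and 0.48, each with an interval above 0. JAK2, which SOCS1 inhibits, was at 0.05 (interval -0.14 to 0.24).

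Of the antigen presentation genes, 16 of 22 tested had an interval above 0 and 1 below, against 15.7% and 13.3% of all genes. The list median was 0.25, and deeply counted genes were clear of 0 more often than others. UBD, a ubiquitin-like protein that marks proteins for the proteasome, was the only call, with 8, 5, 12 and 55 counts and a difference of 3.18 (interval 1.20 to 5.46). UBD reached the minimum count in gRNA2+dox alone and is one of the 16, so the share and median of this list are a description only. Counts of 12 or fewer in 3 of the 4 libraries make its interval wide, and a prior count of 5 in place of 0.5 gave 2.50. The peptide transporter TAP1 had 2250, 2591, 3392 and 4634 counts and a difference of 0.67 (interval 0.57 to 0.77), and the immunoproteasome subunits PSMB9 and PSMB10 were at 0.72 and 0.69. The class I heavy chains HLA-B (0.34), HLA-E (0.25) and HLA-F (0.43) were smaller, and B2M, the light chain they share, was at -0.14 (interval -0.17 to -0.12). C1R, a protease that starts the classical complement cascade and no member of a list, had 81, 71, 97 and 190 counts and a difference of 1.58 (interval 0.97 to 2.19). The GBP, IFIT and HLA genes have close relatives in the genome, and reads that matched several of them were set aside by the aligner, so their counts are less certain than those of unique genes.

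Leukocytes express many of these genes too, and the libraries were therefore read for leukocyte markers. Of 16 markers 5 passed the minimum count, CD3D and TYROBP were among those with no count in any library, and the pan-leukocyte marker PTPRC had at most 2 counts. The summed level of the list was 185.5, 192.1, 214.3 and 216.6 CPM in the same order, and that of the fibroblast and endothelial list was 35.1, 34.6, 38.6 and 43.3 CPM. The 5 markers that passed (CD14, CSF1R, CD68, ITGAX and NCAM1) make up nearly all of the leukocyte sum, so it is not a measure of leukocytes. The part of other cell types in the values of the interferon genes was not tested.

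**Figure D3:**
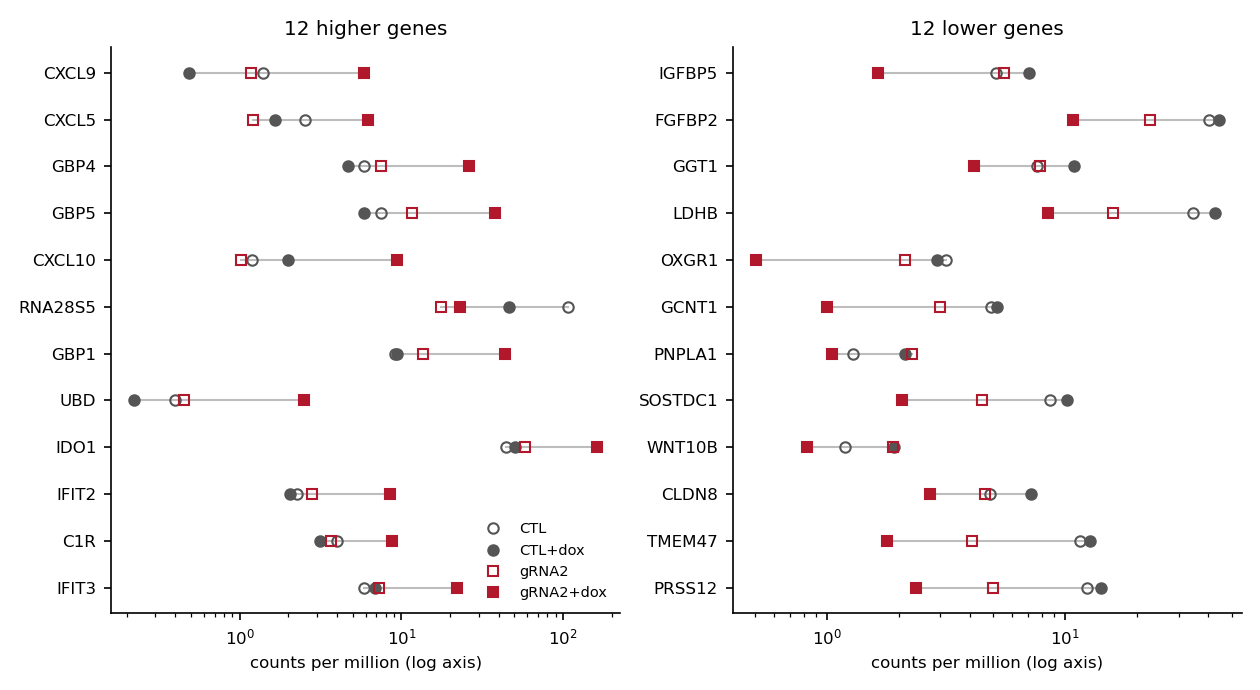
Level in CPM (horizontal, log axis) of the 12 higher and the 12 lower genes whose intervals lie farthest from 0, with 1 symbol per library and no error bars. gRNA2+dox (filled square) is the highest library for each higher gene but RNA28S5 and the lowest for each of the 12 lower genes. Its level enters the difference by which these genes were chosen.

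Neutrophil-attracting chemokines bind the receptors CXCR1 and CXCR2 and are switched on by NF-kappa-B. CXCL5 had 51, 37, 32 and 136 counts, and its difference of 2.95 (interval 2.09 to 3.86) came after those of CXCL9 and UBD by size. CXCL2 had 92, 74, 127 and 177 counts (1.21, interval 0.64 to 1.79), and CXCL3 was at 0.79 (interval 0.40 to 1.17). CXCL8, with between 11372 and 15515 counts, was at 0.07 (interval 0.02 to 0.12), because its ratio was above 0 in both arms (0.37 and 0.30). CXCL1 was at 0.15 with an interval that holds 0, so these neighbouring chromosome 4 genes did not move as a block. IL24, a cytokine of the IL-10 family, was the third call of this list at 1.23 (interval 0.12 to 2.30), with 17, 34, 34 and 119 counts, and CSF2, the growth factor GM-CSF, was at -0.46 (interval -0.67 to -0.26). IL24 reached the minimum count in gRNA2+dox alone. Of the 20 feedback targets of NF-kappa-B, 9 had an interval above 0 and 1 below (median 0.11), against 15.7% and 13.3% of all genes. SOD2, the mitochondrial superoxide dismutase, was the highest of these targets at 0.78 (3896, 4808, 5236 and 8285 counts). The sensors of cytosolic DNA and RNA, which lie upstream of type I interferon, had 2 of 11 above 0 and 1 below (median 0.07), with MAVS at 0.40, STING (listed as TMEM173) at -0.34 and cGAS (listed as MB21D1) at -0.38 with an interval that holds 0. IFI16 was among the 11 only because it reached the minimum count in gRNA2+dox, so this share and median are a description only.

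The promoters of the leading interferon and chemokine genes are shown because these genes were among the higher calls, with the 250 bases before the start site that RefSeq gives on GRCh38.p14, read 5' to 3' along the gene. Capitals mark 3 motifs searched on both strands, which may overlap: the ISRE core GAAANNGAAA, the GAS element TTCNNNGAA and the kappa-B core GGGANNTTCC.
CXCL9, chr4:76007510-76007759, reverse strand: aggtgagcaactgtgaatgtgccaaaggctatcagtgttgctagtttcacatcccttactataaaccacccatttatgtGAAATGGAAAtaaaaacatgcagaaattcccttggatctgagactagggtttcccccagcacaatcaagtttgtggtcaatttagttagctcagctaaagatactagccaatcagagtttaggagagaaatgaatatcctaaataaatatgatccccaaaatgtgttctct
CXCL10, chr4:76023498-76023747, reverse strand: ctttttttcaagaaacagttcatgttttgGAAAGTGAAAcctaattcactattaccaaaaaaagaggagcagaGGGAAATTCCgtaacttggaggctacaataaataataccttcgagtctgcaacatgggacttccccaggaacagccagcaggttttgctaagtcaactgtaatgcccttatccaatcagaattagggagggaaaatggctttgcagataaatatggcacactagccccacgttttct
GBP1, chr1:89065209-89065458, reverse strand: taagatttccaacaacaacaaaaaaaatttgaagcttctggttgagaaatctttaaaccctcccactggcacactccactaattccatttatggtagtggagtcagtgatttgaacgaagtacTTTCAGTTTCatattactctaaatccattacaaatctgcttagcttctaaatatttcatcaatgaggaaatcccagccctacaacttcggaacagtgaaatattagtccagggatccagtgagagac
GBP4, chr1:89198943-89199192, reverse strand: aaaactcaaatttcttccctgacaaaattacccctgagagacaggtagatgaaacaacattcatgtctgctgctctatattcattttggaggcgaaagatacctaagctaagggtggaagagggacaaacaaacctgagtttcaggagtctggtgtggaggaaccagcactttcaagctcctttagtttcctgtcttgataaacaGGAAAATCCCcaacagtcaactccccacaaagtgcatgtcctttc
IFIT3, chr10:89327747-89327996, forward strand: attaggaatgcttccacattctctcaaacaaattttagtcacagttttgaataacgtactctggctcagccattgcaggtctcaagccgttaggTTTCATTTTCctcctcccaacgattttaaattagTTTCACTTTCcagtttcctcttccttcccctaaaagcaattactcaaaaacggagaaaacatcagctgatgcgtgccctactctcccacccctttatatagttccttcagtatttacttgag
CXCL5, chr4:73998678-73998927, reverse strand: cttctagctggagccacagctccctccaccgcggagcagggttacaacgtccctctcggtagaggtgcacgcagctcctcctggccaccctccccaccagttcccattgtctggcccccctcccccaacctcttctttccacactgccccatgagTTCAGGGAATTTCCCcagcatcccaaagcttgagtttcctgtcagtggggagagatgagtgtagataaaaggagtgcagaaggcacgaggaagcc

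The ISRE is bound by STAT and IRF complexes, the GAS element by STAT dimers and the kappa-B site by NF-kappa-B. The ISRE core ends 162 bases before the start site in CXCL9, 212 in CXCL10, 118 in GBP1 and 147 and 113 in IFIT3. A kappa-B core ends 168 bases before the start in CXCL10 and 36 in GBP4, and CXCL5 holds a GAS element that overlaps its kappa-B cores at 82 and 81 bases. For IFIT3 the table holds more than 1 start, and the one farthest upstream is shown. Of the 54 higher genes, 33 had a promoter in the table, and motifs were counted over 250 bases before to 50 after the start. An ISRE core was in 7 of them (21.2%), against 2.7% of the 9496 tested genes with a promoter and 1 of 61 lower genes (1.64%). A kappa-B core was in 6 of the 33 (18.2%), against 1.72% of tested genes and 1 of 61 lower genes. A GAS element was in 4 of the 33 (12.1%) and in 7 of 61 lower genes (11.5%), against 6.4% of tested genes. A match of letters is a description and not a site shown to be used. The motifs were chosen with earlier results of these data known. Some higher genes, CXCL9 and CXCL10 among them, were tested only through gRNA2+dox, so these shares are a description only.

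Few of the lower genes were in a list: 2 of the 86 were members of any of the 35 lists, against 6.42% of tested genes and 18 of the 54 higher genes. The lists were chosen with earlier results of these data known, and several higher members were tested only through gRNA2+dox. These shares partly follow from that choice and are a description only. IGFBP5, a secreted protein that binds insulin-like growth factors, led the lower genes. It had 104 counts in CTL against 158 in CTL+dox, and 146 in gRNA2 against 36 in gRNA2+dox. The gRNA2 ratio was -1.74 and the CTL ratio 0.45, a difference of -2.18 (interval -2.88 to -1.54). FGFBP2 had 814, 994, 598 and 235 counts (-1.21, interval -1.47 to -0.95). In IGFBP5 the untreated pools were at similar levels of 5.15 and 5.54 CPM, while in FGFBP2 the untreated gRNA2 pool was already lower, at 22.7 against 40.3 CPM. LDHB, the lactate dehydrogenase subunit that favours conversion of lactate to pyruvate, was of the same kind as FGFBP2, with 699, 957, 419 and 185 counts and a difference of -1.21 (interval -1.50 to -0.92). GGT1, which cleaves extracellular glutathione, had 154, 244, 207 and 91 counts (-1.42, interval -1.91 to -0.95), and close relatives of GGT1 in the genome make its count less certain.

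OXGR1, the receptor for oxoglutarate, had 64, 65, 56 and 11 counts and the lowest gRNA2 ratio of all genes tested at -2.03, with a difference of -1.90 (interval -3.15 to -0.83). GCNT1, which branches O-linked glycans, had 99, 116, 79 and 22 counts (-1.63, interval -2.50 to -0.83). These differences lay almost wholly in the gRNA2 arm, with CTL ratios of -0.13 and 0.08. WNT10B, a WNT ligand, had 24, 43, 50 and 18 counts (-1.86, interval -3.05 to -0.75), and SOSTDC1, a secreted antagonist of BMP and WNT signals, had 175, 230, 118 and 45 counts (-1.35, interval -1.97 to -0.77). CLDN8, a tight junction claudin, had 98, 162, 122 and 59 counts (-1.34, interval -1.96 to -0.75). PNPLA1, a lipid enzyme of the skin barrier, had 26, 48, 60 and 23 counts (-1.82, interval -2.90 to -0.79). In WNT10B, CLDN8 and PNPLA1 the CTL ratio was 0.68, 0.57 and 0.72, so the higher count in CTL+dox made up much of the difference. TMEM47, a membrane protein of cell junctions, and PRSS12, a secreted serine protease, closed the ranking at -1.32 and -1.26. Both were, like SOSTDC1, lower in the untreated gRNA2 pool than in CTL (4.06 against 11.5 CPM for TMEM47 and 5.01 against 12.4 CPM for PRSS12). Over all 86 lower genes, however, the untreated gRNA2 pool was above CTL in 58 and below it in 28, and above it in 17 of the 54 higher genes, against 49% of tested genes. The untreated gRNA2 and CTL libraries enter the difference themselves, so these counts partly follow from the choice of genes.

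**Figure D4:**
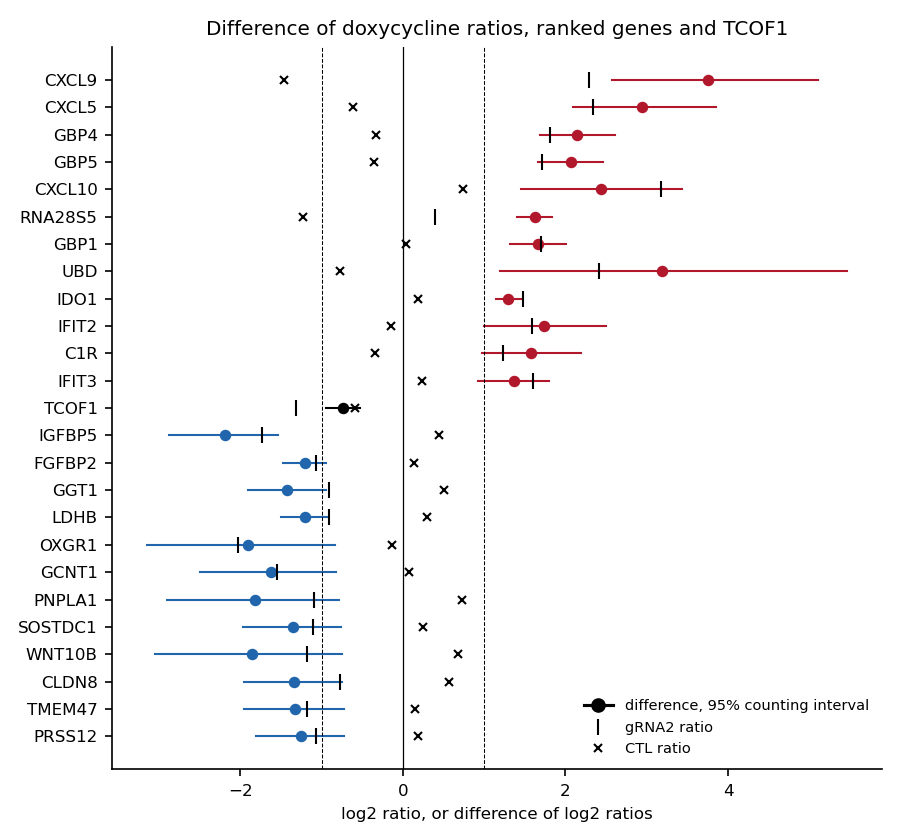
Difference of log2 ratios (circle) with its exact 95% counting interval (line) for the 12 higher genes, TCOF1 and the 12 lower genes, with the gRNA2 ratio (bar) and the CTL ratio (cross) that make it up. Dashed lines mark 1 and -1. CXCL9 is the highest at 3.76, IGFBP5 the lowest at -2.18, and RNA28S5 is the gene whose CTL ratio (-1.23) is larger than its gRNA2 ratio (0.40).

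RNA28S5, a copy of the 28S ribosomal RNA, was among the 12 higher genes for a different reason. It had 2175, 1032, 462 and 504 counts, and its difference of 1.62 (interval 1.41 to 1.84) came mainly from the CTL ratio of -1.23. gRNA2+dox was not the highest library for it. Ribosomal RNA has many near-identical copies, so this count is uncertain. Of the called genes, 79.6% of the higher and 90.7% of the lower were protein-coding, against 94.9% of tested genes.

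Genes of mitosis were lower as a group. Of 56 tested, 22 (39.3%) had an interval below 0 and 0 above, beside 13.3% and 15.7% of all genes, and the median was -0.27. The gRNA2 arm had a median of -0.26 and the CTL arm 0.02. The summed level of the list was 1310, 1320, 1203 and 1041 CPM in the same order of libraries. By this sum gRNA2 without doxycycline was already below both CTL libraries. DLGAP5, which stabilises the microtubules of the spindle, was the only call, with 134, 161, 157 and 63 counts and a difference of -1.15 (interval -1.72 to -0.60). The kinase PLK1, needed at nearly every step of mitosis, had 517, 644, 704 and 371 counts (-0.82, interval -1.07 to -0.57). KIF20A, a kinesin of cytokinesis, was at -0.84, BIRC5, the survivin of the chromosomal passenger complex, at -0.74 and the kinetochore protein NDC80 at -0.73, each with an interval below 0. In KIF20A, BIRC5 and NDC80 the CTL ratio was between 0.29 and 0.42, so these genes moved in opposite directions in the 2 pools. MKI67, the proliferation marker, had 634, 521, 984 and 527 counts and was lower with doxycycline in both pools, which left a difference of -0.19 (interval -0.43 to 0.04). CDK1 and CCNB1, the kinase and cyclin that start mitosis, were at -0.28 and -0.38, and BUB3 (0.05) and BUB1 (0.01) of the spindle checkpoint had intervals that hold 0.

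Genes of DNA replication followed with smaller values, 15 of 46 (32.6%) below 0 and 2 above, against 13.3% and 15.7% of all genes. Their median was -0.11. RRM2, the ribonucleotide reductase subunit that sets nucleotide supply, had 1667, 2163, 1859 and 1277 counts (-0.49, interval -0.63 to -0.35), and POLA1 (-0.47) was close to it. Repair genes did not share this direction, with 6 of 32 above 0 and 3 below (median 0.07), among them the call FANCB at 1.17 (interval 0.26 to 2.11), which rests on 45, 35, 41 and 54 counts. FANCB reached the minimum count in gRNA2+dox alone, so the share and median of the repair genes are a description only. The targets of p53 had 1 of 24 above 0 and 3 below (median 0.04). CDKN1A, which encodes p21, was at -0.05 (interval -0.09 to -0.01) with 17827, 20121, 23942 and 19464 counts, and BBC3, which encodes PUMA, was at 0.65 (interval 0.25 to 1.04). The promoters of DLGAP5 and PLK1 are shown with the CHR element TTTGAA and the CCAAT box CCAAT in capitals, searched on both strands, since both are common before genes of G2 and M phase.
DLGAP5, chr14:55191586-55191835, reverse strand: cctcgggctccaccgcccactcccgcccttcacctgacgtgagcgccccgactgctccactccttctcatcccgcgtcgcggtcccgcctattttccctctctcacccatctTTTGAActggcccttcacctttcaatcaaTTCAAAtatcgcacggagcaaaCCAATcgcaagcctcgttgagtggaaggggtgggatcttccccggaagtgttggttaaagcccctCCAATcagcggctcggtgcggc
PLK1, chr16:23678639-23678888, forward strand: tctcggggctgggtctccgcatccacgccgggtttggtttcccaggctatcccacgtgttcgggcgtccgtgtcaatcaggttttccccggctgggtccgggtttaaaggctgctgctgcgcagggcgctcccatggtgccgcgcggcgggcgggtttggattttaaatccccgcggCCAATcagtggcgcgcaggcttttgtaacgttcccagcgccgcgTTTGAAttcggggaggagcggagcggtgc

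A CHR element was in 35 of the 51 mitosis genes with a promoter in the table (68.6%) and a CCAAT box in 38 (74.5%), against 9.53% and 36.6% of tested genes. Of the 61 lower genes with a promoter, 8 (13.1%) held a CHR element and 24 (39.3%) a CCAAT box.

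TCOF1 acts in the nucleolus, and the genes of ribosome production were read next. The RNA polymerase I and nucleolar list had a median of 0.00, with 2 of 20 above 0 and 3 below, TCOF1 among the latter. POLR1B, a core subunit of the polymerase, was at 0.46 (interval 0.25 to 0.67), NOLC1, a partner of treacle, at 0.24 (interval 0.11 to 0.36) and NPM1 at -0.12 (interval -0.16 to -0.08). Ribosome biogenesis factors had 9 of 37 (24.3%) above 0 and 3 (8.11%) below, not far from the 15.7% and 13.3% of all genes, with a median of 0.10, led by BYSL at 0.49 and NOP2 at 0.36. Cytosolic ribosomal proteins had 26 of 52 (50%) below 0 and 1 above, with a median of -0.08. That median came from the control arm, with a CTL ratio of 0.11 and a gRNA2 ratio of 0.02 in the median, and RPS28 was the lowest member at -0.35. Nearly all of the cytosolic ribosomal protein genes reached 1000 counts, and 42.5% of all genes at that depth were clear of 0 in one direction or the other. The respiratory chain had 18 of 56 below 0 and 2 above (median -0.09). Both of its arms were above 0 in the median, with a CTL ratio of 0.15 and a gRNA2 ratio of 0.09. COX7B was the lowest member of the respiratory chain at -0.54, with a CTL ratio of 0.46 and a gRNA2 ratio of -0.08. Mitochondrial ribosomal proteins had 4 above and 4 below 0 of 43.

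Nuclear retained RNAs and snoRNA hosts had no common direction, with 3 of 14 (21.4%) above 0 and 3 (21.4%) below (median 0.07). These shares were not far from the 15.7% and 13.3% of all genes. NEAT1, the scaffold of paraspeckles, had 1557, 1523, 1714 and 2265 counts and a difference of 0.86, with 0.72 as the lower end of its interval, and MALAT1 of nuclear speckles had 1883, 1876, 2270 and 2581 counts and a difference of 0.61 (interval 0.49 to 0.74). Reads that fell on no gene made up 12.5% of the gRNA2+dox reads and between 10.6% and 11.3% of the others, and reads with several places 3.39% against 4.02% to 4.85%. The part of these shares in the values of the ribosomal protein genes, NEAT1 and MALAT1 was not tested.

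Metabolic lists had small differences, and their counts stand beside the 13.3% of all genes below 0 and the 42.5% of genes with 1000 counts or more that were clear of 0 in either direction. Of the cholesterol and fatty acid synthesis genes 17 of 31 were below 0 and 2 above (median -0.11), with the desaturase SCD at -0.21. Of the targets of ATF4, which answers amino acid shortage, 13 of 25 were below 0 and 5 above (median -0.12), with the serine synthesis enzyme PSAT1 at -0.36 and the tryptophan tRNA synthetase, listed as WARS and also known to respond to interferon, at 0.18. Of the NRF2 targets and ferritin 9 of 20 were below 0 and 3 above (median -0.15), and the ferritin chains parted, FTH1 being at 0.31 (interval 0.30 to 0.33) and FTL at -0.23 (interval -0.26 to -0.20). The hypoxia and glycolysis list had 9 of 32 below 0 and 2 above with a median of -0.01. Endoplasmic reticulum chaperones (3 above, 2 below of 18) and cytosolic heat shock proteins (4 above, 4 below of 14) were balanced, as were the immediate early genes and ERK feedback genes (7 above, 6 below of 25).

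Genes of cell fate gave few calls. The counts of their lists stand beside the 15.7% of all genes with an interval above 0 and the 13.3% below. Deeply counted genes were clear of 0 more often than others. In the Notch pathway 8 of 13 were above 0 and 0 below (median 0.14). HEY2, a repressor that Notch induces, was called at 1.06 (interval 0.46 to 1.67) with 96, 68, 114 and 126 counts, and NRARP, a feedback inhibitor, was at 0.78 (492, 351, 560 and 513 counts). In both genes the CTL ratio was near -0.65, so the lower count in CTL+dox made up most of the difference, and the median CTL ratio of the list was -0.15 against a median gRNA2 ratio of -0.01. In the TGF-beta and BMP list 2 of 20 were above 0 and 4 below (median -0.09). INHBA, a subunit of activin, was at 0.62 (interval 0.47 to 0.77). WNT receptors and feedback targets had 3 above and 4 below 0 of 18, and the EGFR family and ligands 1 above and 3 below of 11. Stem cell markers had 7 of 16 below 0 and 1 above (median -0.07), with PROCR at -0.78 and PROM1 at -0.29, CD44 at -0.10 and SOX9 above 0 at 0.14. Keratins split, with 9 of 18 above 0 and 4 below: KRT10 was at 0.98 (1037, 1126, 702 and 1124 counts), KRT13 at -0.72 and KRT4 at -0.58. KRT10 had its lowest count in gRNA2 without doxycycline and was at similar counts in the other 3 libraries. Epithelial and mesenchymal genes had 4 above and 5 below 0 of 18, with the mesenchymal filament VIM at -0.63 (interval -0.85 to -0.42).

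The study followed up KIT, FZD8 and NOS2 after seeing these libraries, so their values here are not independent of that choice. In its own RT-qPCR the study reported lower mRNA of these genes in knockout mammospheres, and by immunoblot lower KIT and FZD8 protein in spheroids. KIT, a receptor tyrosine kinase of stem cells, had 27 counts in CTL against 31 in CTL+dox, and 20 in gRNA2 against 3 in gRNA2+dox, under the minimum for the genes tested. Its difference was -2.34 (interval -5.02 to -0.51), with a CTL ratio of 0.05, and it was -1.49 with a prior count of 5, so its size depends on the prior count. NOS2, the inducible nitric oxide synthase, had 10, 17, 9 and 0 counts and was also under the minimum. No fold is given for it, and the upper end of the interval of its difference was -0.93. A count of 0 in gRNA2+dox allows up to 3 counts, or 0.135 CPM. FZD8, a WNT receptor, had 64, 49, 37 and 16 counts and passed the minimum. Both of its ratios were below 0 (-0.92 and -0.53), and the difference of -0.39 (interval -1.51 to 0.67) was not clear of 0 at this depth.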

How the data were processed

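The authors trimmed the reads with fastp, aligned them with STAR and deposited STAR's gene counts, which are raw whole-number counts per gene symbol. The labels name hg38, and the annotation is not given in the sources used here. STAR counts only reads with 1 place in the genome. The unstranded counts were used, since both strands held near-equal shares, and the leading summary lines (19.0% to 20.3% of reads) were left out. Each of the 4 libraries was 1 group.

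Libraries were scaled with TMM (edgeR 4.0.16 in R 4.3.3). A prior count of 0.5 went into the log2 ratios, and genes that reached 50 counts in any library were kept. Intervals are exact conditional 95% intervals of the odds ratio of the 4 counts, computed with scipy 1.17.1 and tested on simulated data. They hold counting error only. Named genes were TCOF1, the 3 genes the study followed up, the 12 higher and 12 lower called genes whose interval end nearest 0 was farthest from 0, and in each list the called members and up to 4 members by the same rank, with members that define the list; others are said to be named after their values were seen. The members, the 35 gene lists and the motifs were chosen with earlier results of these data known. Of 886 list entries 884 were found, 27 by an older symbol. Promoters and positions are from RefSeq (GRCh38.p14), and the guide was placed on GRCh37 with GENCODE. The alternatives used size factors of DESeq2 1.42.0, total counts alone, other minimum counts, a prior count of 5, thinning, an added coefficient of variation of 0.1 and the additive scale. Some genes are not reported here.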

Additional observations from a re-analysis of the deposited data

Results flagged for a closer look

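In 9 of the named genes doxycycline went with opposite changes in the 2 pools, each arm's own 95% counting interval being clear of 0. With 1 library per condition the difference between the pools was not tested. Most named genes were chosen by a large difference between the arms, a choice that favours opposite signs by itself. The share of all genes that meet the same rule was not counted. Doxycycline went with more counts in the gRNA2 pool and fewer in the control pool for CXCL9, whose difference was 3.76, for GBP5 (2.06) and for RNA28S5 (1.62). It went with fewer counts in the gRNA2 pool and more in the control pool for IGFBP5 (-2.18), PNPLA1 (-1.82), GGT1 (-1.42), CLDN8 (-1.34), FGFBP2 (-1.21) and LDHB (-1.21).

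The control arm was the weaker of the arms in 8 of these genes and the stronger in RNA28S5. For GBP5 it was only just clear of 0, with a CTL ratio of -0.36 (interval -0.70 to -0.01), and so it was for PNPLA1, with a CTL ratio of 0.72 (interval 0.01 to 1.48), and for FGFBP2, with a CTL ratio of 0.14 (interval 0.00 to 0.27).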

How the results depend on the processing

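The minimum count decided how many genes were called. With every gene of at least 1 count, 2448 genes were higher and 2771 lower, of which 172 and 234 were clear of 0, and with at least 100 counts the numbers were 24 higher and 26 lower, all clear of 0. With a prior count of 5, 36 genes were higher and 68 lower, and 34 of the higher were clear of 0. DESeq2 size factors gave 53 higher and 86 lower genes, total counts 53 and 88, and thinning to the smallest library 54 and 83, of which only 38 and 62 were genes called before thinning. An assumed coefficient of variation of 0.1 between cultures, an assumption these data cannot check, left 45 and 71 genes clear of 0. The TCOF1 difference and those of the other 27 named genes kept their direction and moved by less than their counting interval under the 4 alternatives run on them (scalings, prior count, thinning), although with a prior count of 5 KIT went from -2.34 to -1.49 and UBD from 3.18 to 2.50, and 3 list medians near 0 changed sign. NOS2 moved the most with a prior count of 5. Its interval has no lower end, so a move within the interval says nothing for NOS2. No paired analysis was possible because the labels give no replicate numbers, and with 1 library in each condition none could be left out. Depth limits the genes under 100 counts, which made up 55.6% of the higher and 68.6% of the lower genes.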
